A study of Mus musculus with 31 samples.

Results

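CC chemokines are small secreted proteins that draw leukocytes towards a source of inflammation. The 7 members described here are Ccl2, Ccl3, Ccl4, Ccl5, Ccl7, Ccl9 and Ccl12, taken as a named list from the 19902 genes measured by probes with a single gene symbol. Each was read from its brightest probe, and each had 1 probe on the array.

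The data were 31 arrays on 9 slides. Each array carried 1 sample in Cy3 and 1 in Cy5, both of forebrain RNA from NMRI mice aged 5 days, and each sample was a pool of 6 pups, given in the labels as 3 males and 3 females. Experiment 1 set mice given MgSO4 at 600 mg/kg (Cy5) against controls (Cy3), with 4 arrays at each of 3, 12 and 24 h and 7 arrays at 6 h. Experiment 3 set hypoxia-ischemia (HI: permanent ligature of the right carotid, then a period of low oxygen) in Cy5 against controls in Cy3, with 3 arrays at each of 3 and 12 h. Experiment 2, also 3 arrays at each of these times, set mice given MgSO4 before HI (MgHI) against mice with HI and no MgSO4. The labels describe subcutaneous injection and controls given PBS, whereas the methods describe intraperitoneal injection and controls with no intervention. The titles of Experiment 3 carry PBS in the names of the HI samples and call the reference mice naive. Pools hide the spread between pups, no dye swap was made, so a dye effect stays in every ratio, and in bulk tissue fewer cells of a type cannot be told apart from less RNA per cell.

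Several labels conflict. On the arrays of Experiment 2 the methods and the treatment labels place MgHI in Cy5, the legends of the study place it in Cy3, and the titles name mice with MgSO4 and no HI as the Cy3 sample. For this reason the channels of Experiment 2 are reported as channels. In Experiment 3, MgSO4 appears in the treatment label of the Cy5 pools but not in their titles or source, and these pools were read as HI without MgSO4. Whether they were given PBS, as their titles read, was not settled. At 6 h after MgSO4, 5 of 21 pairs of arrays correlated below -0.3 over all probes (from -0.421 to 0.859), each of them a pair with replicate 3 or 7. The direction of these ratios is therefore not settled, and they are given also with the sign of all 7 arrays turned and with that of replicates 3 and 7 alone turned, a reading chosen after seeing the data. Replicates 3 and 7 were also the only arrays of this group on their slide. They had its lowest shares of spots well above background in Cy3, 49.92% and 45.17%. Dye direction and slide cannot be told apart here and were not tested.

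In the brain, CC chemokines are produced mainly by microglia, astrocytes, endothelium and infiltrating myeloid cells. Ccl2, Ccl7 and Ccl12 belong to the monocyte chemoattractant proteins and act through Ccr2, whereas Ccl3, Ccl5 and Ccl9 act through Ccr1. Ccl4 is a close relative of Ccl3. Many of these genes are induced through NF-kB and AP-1 after Toll-like receptor, interleukin-1 or tumor necrosis factor signalling.

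All 7 genes lie on chromosome 11, in the order Ccl2, Ccl7, Ccl12, Ccl5, Ccl9, Ccl3, Ccl4. Promoter sequences of RefSeq (build GRCm38.p6, 250 bases before to 50 after the start site, 5′ to 3′ on the strand of the gene) were at hand for 3 of them, and are shown because these genes responded to HI to different degrees. Ccl12 (chr11:82101595-82101894, plus strand), Ccl9 (chr11:83578587-83578886, minus strand) and Ccl3 (chr11:83649329-83649628, minus strand) follow, with capitals marking matches, on either strand, to the TATA box letters TATAAA, the AP-1 letters TGANTCA or the NF-kB motif.
Ccl12: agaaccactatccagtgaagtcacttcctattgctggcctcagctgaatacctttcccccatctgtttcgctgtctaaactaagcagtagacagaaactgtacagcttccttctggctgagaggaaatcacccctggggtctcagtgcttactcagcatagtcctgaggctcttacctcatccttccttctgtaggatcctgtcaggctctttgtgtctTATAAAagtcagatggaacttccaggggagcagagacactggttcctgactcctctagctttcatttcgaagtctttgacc
Ccl9: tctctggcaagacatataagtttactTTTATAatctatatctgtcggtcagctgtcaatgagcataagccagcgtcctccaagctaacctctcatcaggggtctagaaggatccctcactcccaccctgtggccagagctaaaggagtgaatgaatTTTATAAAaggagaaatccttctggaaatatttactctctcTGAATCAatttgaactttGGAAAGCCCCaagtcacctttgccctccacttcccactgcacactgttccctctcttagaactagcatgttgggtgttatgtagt
Ccl3: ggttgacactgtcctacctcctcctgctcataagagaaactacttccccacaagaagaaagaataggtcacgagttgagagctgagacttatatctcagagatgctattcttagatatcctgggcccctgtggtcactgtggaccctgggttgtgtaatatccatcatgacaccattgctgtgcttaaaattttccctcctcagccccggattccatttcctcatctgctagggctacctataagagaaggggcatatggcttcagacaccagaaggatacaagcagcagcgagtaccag
The Ccl12 window held TATAAA from -31 to -26 relative to the start site. The Ccl9 window held TATAAA or its complement at 3 places, 2 of them overlapping, an AP-1 match from -53 to -47 and an NF-kB match from -35 to -26. No match to these letters was found in the Ccl3 window, and the core of the interferon-stimulated response element was in none of the 3. Of all 32851 promoters of this length, 13.6% held TATAAA, 7.81% the AP-1 letters, 8.46% the NF-kB motif and 3.44% the interferon-stimulated core. These matches are a description of letters and not of binding.

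Basal signal differed in how far it stood above background. In the 25 control samples (Cy3), Ccl9 and Ccl12 were well above background in 25, Ccl2 in 24, Ccl7 in 23, Ccl3 and Ccl4 in 19 and Ccl5 in 4. In the 6 HI samples (Cy5), Ccl5 was well above background in 5 and each of the other members in all 6. The Ccl2 probe was spotted 10 times per array, and the log2 ratio varied over these spots with an SD of 0.0721 to 0.184 on the HI arrays. Over all arrays 45.2% to 69.7% of spots were well above background in Cy3 and 54.4% to 70.2% in Cy5, and no spot was saturated. Markers of neurons (6 of 6) and astrocytes (7 of 7) were well above background in both channels of every array.

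**Figure D1:**
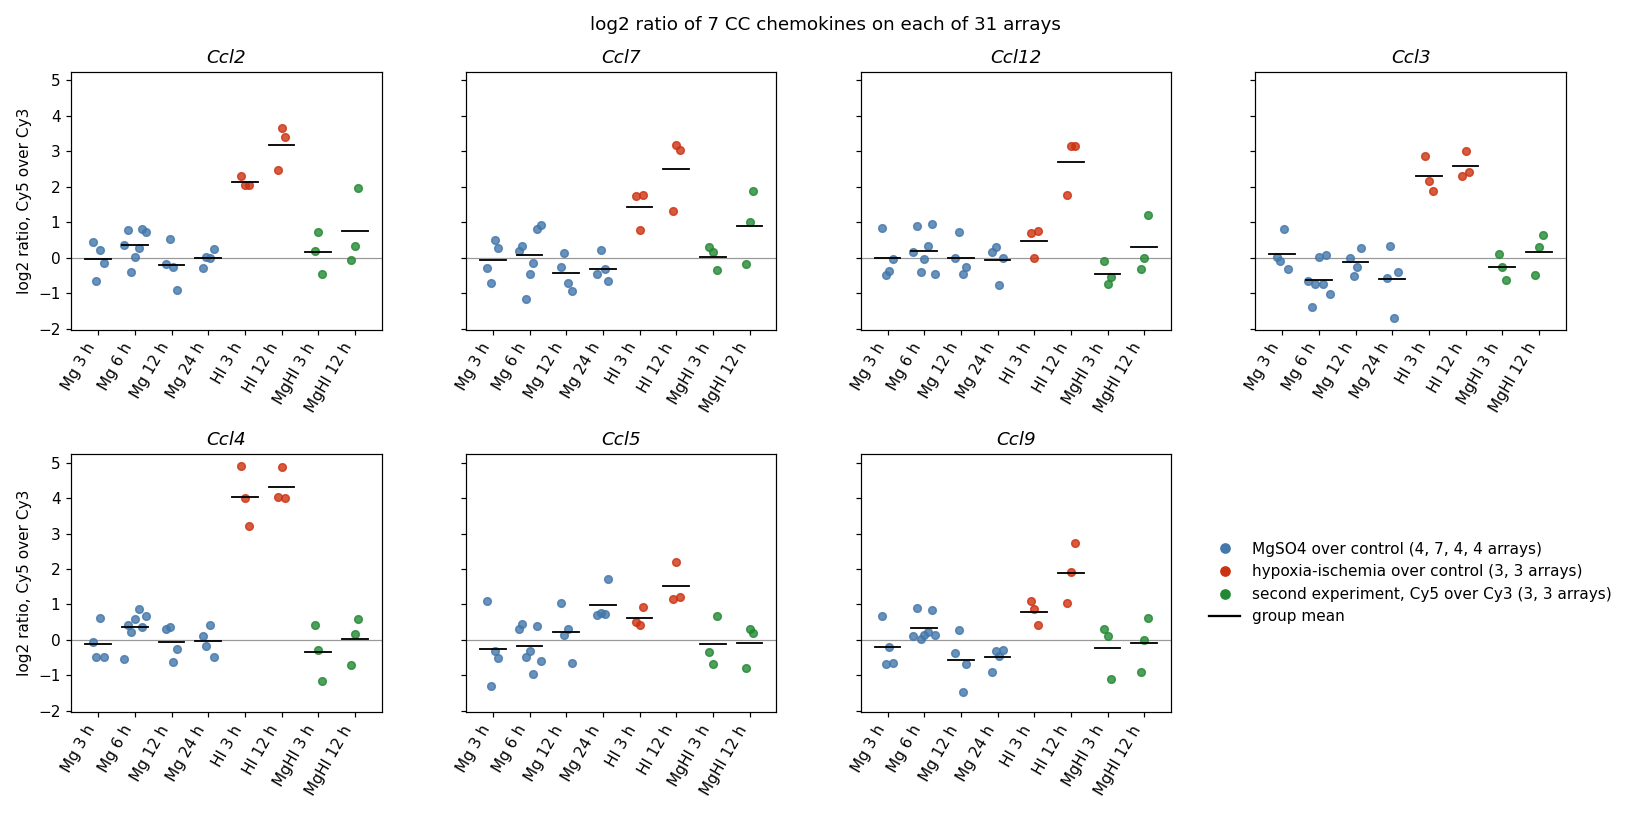
Each panel plots 1 gene, with the log2 ratio of Cy5 over Cy3 on the vertical axis and the 8 groups on the horizontal axis; the points are arrays and bars are group means. The HI arrays lie above 0 for every gene except Ccl12 at 3 h, where 1 array is at 0. The arrays of MgSO4 alone and of MgHI lie on both sides of 0 in most groups. They lie on 1 side for Ccl9 at 6 h and 24 h and Ccl5 at 24 h after MgSO4, and for Ccl12 at 3 h in MgHI.

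Experiment 3 asked what HI does to transcription in the immature brain. At 3 h after HI, 6 of 7 CC chemokines were called higher and none lower (5 where both channels had to be above background, without Ccl5), led by Ccl4 at 16.4-fold, Ccl3 at 4.93-fold and Ccl2 at 4.40-fold over control. A call is an adjusted p under 0.05 (limma, Benjamini-Hochberg adjustment over all tested probes) with a change of at least 1.5-fold, and of the 18919 probes tested in this comparison 3.79% were called, 2.42% in the higher direction. Ccl12 was the member that did not pass. The median log2 ratio of the members was 1.42, against -0.020 over all probes tested, and all 7 passed the filter on dim probes, Ccl5 only through the HI channel.

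Ccl4, an attractant released by activated microglia and macrophages, had log2 ratios of HI over control at 3 h of 4.91, 3.99 and 3.20 on the 3 arrays, a mean of 4.03 ± 0.86 (SD, n = 3, adjusted p = 0.0124 by limma). Ccl3, its close relative, which also binds Ccr1, gave 2.87, 2.17 and 1.87, a mean of 2.30 ± 0.52 (SD, n = 3, limma adjusted p = 0.0124). Both genes had replicate 1 highest and replicate 3 lowest, and every array stood far above the equal signal that a log2 ratio of 0 means. Ccl5, which recruits T cells and monocytes, gave 0.51, 0.43 and 0.94, a mean of 0.63 ± 0.27 (SD, n = 3, limma adjusted p = 0.0360). Its control signal was well above background on 1 of the 3 arrays and its HI signal on 2, so this ratio is set against a control near background.

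Among the monocyte chemoattractant proteins, Ccl2, the main attractant of Ccr2-bearing monocytes, had log2 ratios at 3 h of 2.31, 2.05 and 2.05, a mean of 2.14 ± 0.15 (SD, n = 3, limma adjusted p = 0.00413). These were the closest replicates of any member at this time. Ccl7 gave 1.73, 0.77 and 1.77, a mean of 1.42 ± 0.56 or 2.68-fold (SD, n = 3, limma adjusted p = 0.0274). Ccl12, a mouse gene closely related to Ccl2, gave 0.71, 0 and 0.74, a mean of 0.48 ± 0.42 or 1.40-fold (SD, n = 3, limma adjusted p = 0.107), so the array at 0 showed no difference between the channels. Ccl9, a ligand of Ccr1 on myeloid cells, gave 1.09, 0.87 and 0.42, a mean of 0.79 ± 0.34 or 1.73-fold (SD, n = 3, limma adjusted p = 0.0331), with all arrays above 0.

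At 12 h after HI every member had log2 ratios above 0 on all 3 arrays, as did 24.7% of the probes tested, with means of 3.73-fold (Ccl9) to 19.7-fold (Ccl4) among the 6 members whose control signal was above background. Only Ccl4 passed the adjusted test. That is 1 of 7 members called, where 0.0106% of 18926 tested probes (2 probes) were called higher. With an unadjusted limma p under 0.05 and at least 1.5-fold, a rule chosen after seeing the data, 7 of 7 members were higher at 12 h, against 6.57% of all probes, and 6 of 7 at 3 h, against 2.70%. Both counts include Ccl5, whose control signal was well above background on 1 of 3 arrays at each time. The median log2 ratio of the members was 2.58, against 0.0030 over all probes.

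Ccl4 gave log2 ratios of 4.04, 4.88 and 3.99 at 12 h, a mean of 4.30 ± 0.50 (SD, n = 3, limma adjusted p = 0.0310), and Ccl3 gave 2.30, 3.02 and 2.43, a mean of 2.58 ± 0.38 or 5.99-fold (SD, n = 3, limma adjusted p = 0.0625). For both, the 12 h values overlapped those at 3 h. Ccl5 gave 1.15, 2.21 and 1.21, a mean of 1.52 ± 0.60 (SD, n = 3, limma adjusted p = 0.0749), and all 3 lay above the 3 h values. Here too its control signal was well above background on 1 of 3 arrays, against 3 of 3 for its HI signal.

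Ccl2 at 12 h gave 2.46, 3.67 and 3.41, a mean of 3.18 ± 0.63 or 9.07-fold (SD, n = 3, limma adjusted p = 0.0734). Ccl7 gave 1.31, 3.18 and 3.03, a mean of 2.51 ± 1.04 or 5.68-fold (SD, n = 3, limma adjusted p = 0.0743). Ccl12 gave 1.78, 3.15 and 3.14, a mean of 2.69 ± 0.79 or 6.45-fold (SD, n = 3, limma adjusted p = 0.0734). In these 3 genes replicate 1, hybridized on another slide than replicates 2 and 3, was the lowest, and it was lowest too for Ccl9, which gave 1.05, 1.91 and 2.73, a mean of 1.90 ± 0.84 or 3.73-fold (SD, n = 3, limma adjusted p = 0.0775).

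The sizes depended on how background was treated. With normexp background correction or with no background subtraction, each followed by loess, the log2 ratio of Ccl4 was 2.36 or 2.86 at 3 h and 2.25 or 2.78 at 12 h, that of Ccl2 1.23 or 1.51 and 2.12 or 2.49, and that of Ccl3 1.63 or 1.88 and 1.44 or 1.78. Under the same 2 treatments Ccl5 was at 0.065 or 0.077 at 3 h, its call lost, and at 0.29 or 0.46 at 12 h, both under 1.5-fold. Ccl7 was at 0.54, its call lost, or 0.72 at 3 h, and at 1.07 or 1.42 at 12 h. Ccl12 moved less, with 0.43 or 0.44 at 3 h and 2.36 or 2.51 at 12 h, and Ccl9 was at 0.59 or 0.68 and 1.44 or 1.59. Leaving out replicate 1 at 3 h left 3 members called. At 12 h, 7 members were called without replicate 1 or without replicate 3, 4 without replicate 2, and 7 in a single fit over all 8 groups that shared 1 estimate of the spread. Over all probes, leaving out an array called 293 to 726 at 3 h and 18 to 3331 at 12 h.

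**Figure D2:**
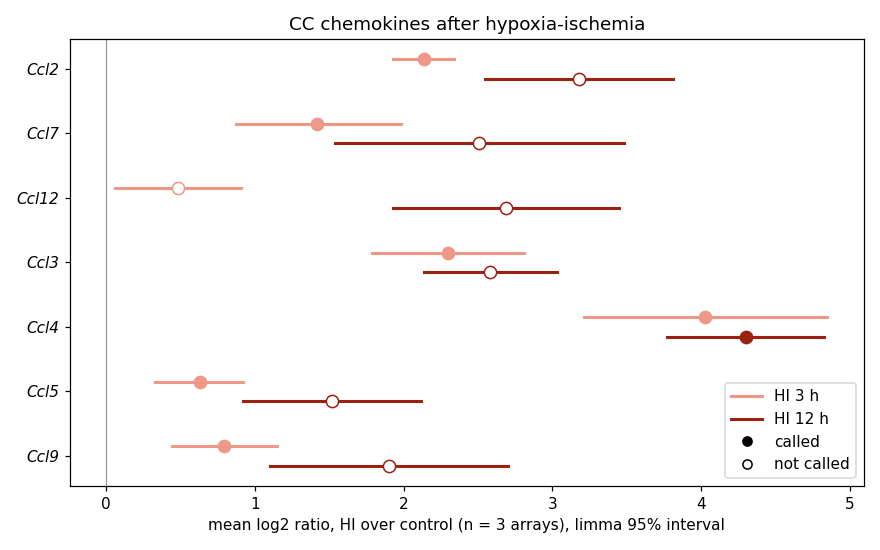
The horizontal axis gives the mean log2 ratio of HI over control (n = 3 arrays) with its limma 95% interval, for each CC chemokine at 3 h and 12 h. Ccl4 stands highest at both times (4.03 and 4.30), and Ccl12 has the widest gap between the times (0.48 and 2.69).

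Whether the response grew between 3 h and 12 h was tested directly, as the difference between the 2 sets of HI arrays. The 12 h mean was higher for all 7 members, but 0 of 7 passed the adjusted limma test, as did 0% of the 19321 probes tested, and 4 of 7 had an unadjusted p under 0.05, against 17.1% of probes. Ccl12 differed most, by 2.21 on the log2 scale (95% interval 1.24 to 3.17, limma adjusted p = 0.110), and its 12 h arrays lay wholly above its 3 h arrays, as did those of Ccl2 and Ccl5 and of 13.2% of probes. Ccl9 differed by 1.1 (0.12 to 2.08), Ccl2 by 1.04 (0.32 to 1.77) and Ccl5 by 0.90 (0.17 to 1.62). The intervals of Ccl7 (-0.18 to 2.35), Ccl3 (-0.44 to 0.998) and Ccl4 (-0.80 to 1.34) included 0, with differences of 1.08, 0.28 and 0.27.

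The rest of the family had a lower median log2 ratio on the same arrays, a difference that was not tested. Of 14 other CC chemokines, 13 were on the array and 7 were bright enough to test at 3 h and 8 at 12 h, of which 0 were called by limma at either time, while 2 and 4 had an unadjusted p under 0.05, against 36.1% and 27.6% of all probes. The 2 at 3 h, named after their values were seen, were Ccl17 (0.55, limma adjusted p = 0.0168) and Ccl19 (0.45, limma adjusted p = 0.0357). Both missed a call only by a change under 1.5-fold. The share of all probes with an adjusted p under 0.05 at any fold was not counted. The median log2 ratio of the tested genes of this list was 0.20 at 3 h and -0.026 at 12 h. A pair of them, named here after their values were seen, stood apart at 12 h: Ccl6, a myeloid chemokine, at 1.25 (limma adjusted p = 0.0776), and Ccl11, an attractant of eosinophils. Ccl11 was well above background on 2 of 3 HI arrays and on 0 of 3 control arrays, so its ratio is a bound, at least 1.55-fold (limma adjusted p = 0.0734), counted from the lowest signal that was well above background on each array.

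Of 14 CC chemokine receptors, 8 could be tested at 3 h and 7 at 12 h. Ccr6, the receptor of Ccl20 on lymphocytes, was called lower at 3 h, with a log2 ratio of -0.92 ± 0.44 (SD, n = 3, limma adjusted p = 0.0363), and measured -1.17 at 12 h (adjusted p = 0.125). It was well above background on all 3 control arrays but on 1 of 3 HI arrays at 3 h, so this ratio is set against an HI signal near background. No receptor was called higher. Ccr8 measured 0.48 at 3 h (limma adjusted p = 0.0204, under 1.5-fold) and 0.39 at 12 h. Ccr10 measured 0.093 and 0.031, and Ccrl2, a receptor that does not signal, 0.95 and -0.27. The scavenging receptor Ackr1 measured 0.46 at 3 h and 1.18 at 12 h (limma adjusted p = 0.0798), Ackr2 measured 0.23 and -0.067, and Ccr9, tested at 3 h only, -0.25. The receptors Ccr1 and Ccr2 were too dim to test at both times.

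**Figure D3:**
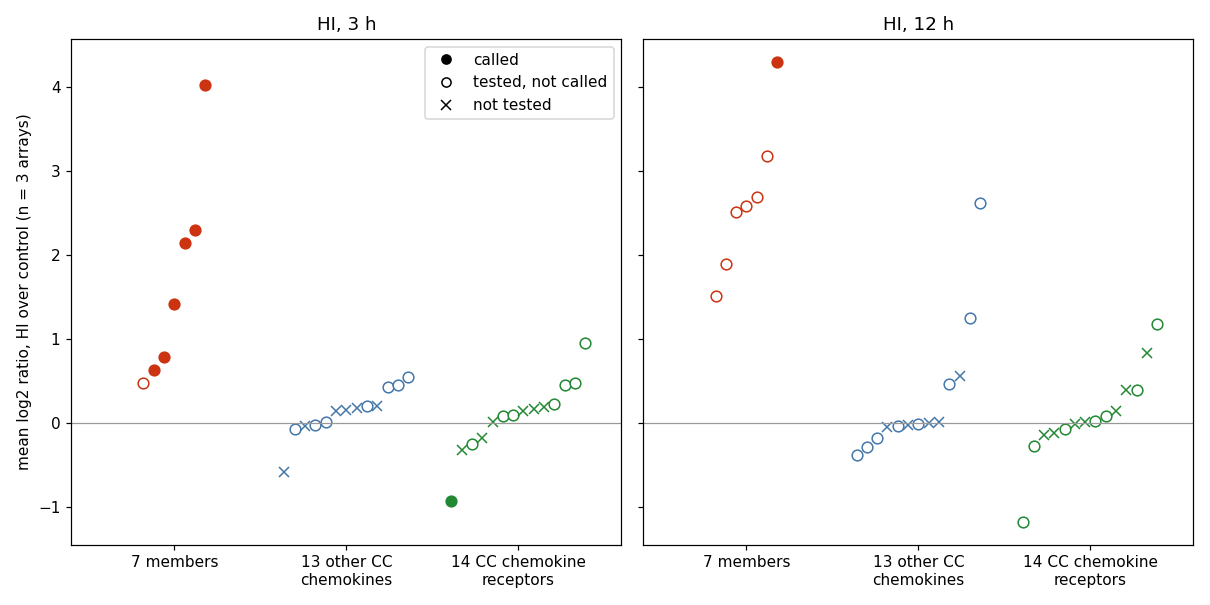
The vertical axis gives the mean log2 ratio of HI over control (n = 3 arrays) for the 7 members, 13 other CC chemokines and 14 CC chemokine receptors, at 3 h on the left and 12 h on the right; each point is a gene. The members lie above most other genes of the family, with medians of 1.42 and 2.58; the highest other CC chemokine at 12 h is Ccl11, whose control signal was not well above background.

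Of 21 genes that induce CC chemokines or belong to the NF-kB and AP-1 pathways, 16 were tested at 3 h and 3 were called higher, against 2.42% of all probes. The 3 genes were Fos (5.52 ± 0.37, SD, n = 3) and Jun (2.34 ± 0.40, SD, n = 3), the AP-1 subunits, and Cd14 (1.14 ± 0.23, SD, n = 3), a co-receptor for Toll-like receptor ligands. The median of the list was 0.39 at 3 h and 0.43 at 12 h, when 18 were tested, 0 were called by limma and 10 had an unadjusted p under 0.05 in the higher direction. Of all probes, 27.6% had an unadjusted p under 0.05 in either direction at 12 h.

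Markers of other cells were read on the same HI arrays, where 2.42% of all probes tested were called higher at 3 h. Of 7 neutrophil genes, 5 were tested at 3 h and 3 were called higher, S100a8 at 1.09 and S100a9 at 0.82 on the log2 scale and Retnlg, which was above background on 2 of 3 HI arrays and 0 of 3 control arrays, at least 1.26-fold. The other 2 tested were lower and not called, Mpo at -0.64, with 1 of 3 HI arrays well above background, and Camp at -0.10. The summed level of this list ran from 0.926 to 1.27 in Cy3 and from 1.74 to 1.87 in Cy5 (in units of the 75th percentile of each array), while Ltf and Ngp were not well above background in either channel. At 12 h 0 of 4 tested neutrophil genes were called, and the sums overlapped, at 0.948 to 2.20 and 1.11 to 3.59. Of 6 monocyte genes 4 were tested at each time and 0 called, with sums at 3 h of 2.44 to 3.11 in Cy3 and 2.43 to 2.89 in Cy5, and Ccr2 not well above background. Of 12 microglial genes, all tested, 0 were called higher and 1, Gpr34, lower (-0.87) at 3 h, and sums ran from 55.2 to 60.2 in Cy3 and 58.7 to 65.4 in Cy5 at 3 h, and from 51.3 to 60.9 and 50.3 to 73.4 at 12 h. By gene, 11 of the 12 microglial log2 ratios were below 0 at 3 h and 7 at 12 h. With an unadjusted limma p under 0.05, 5 were lower and 1 higher at 3 h, and 3 lower and 3 higher at 12 h. Astrocyte genes, all 7 tested, had 0 called at either time, but at 12 h their sums did not overlap, at 25.8 to 29.7 in Cy3 and 31.8 to 39.5 in Cy5, and 3 had an unadjusted p under 0.05 in the higher direction and 1 in the lower, led by Gfap, the intermediate filament of astrocytes, at 1.63 (limma adjusted p = 0.0734). At 3 h these sums overlapped (25.0 to 28.8 and 27.1 to 31.6). Of 5 genes of the oligodendrocyte lineage, 0 were called, and 4 had an unadjusted p under 0.05 in the higher direction at 12 h, when sums were 5.31 to 6.04 in Cy3 and 7.34 to 7.57 in Cy5, against 6.61 to 7.08 and 6.11 to 7.34 at 3 h. Of all probes, 36.1% at 3 h and 27.6% at 12 h had an unadjusted p under 0.05 in either direction. All 3 HI ratios lay on 1 side of 0 for 57.5% of probes at 3 h and 50.6% at 12 h. The share of probes whose channel levels did not overlap, as the sums are compared, was not counted. The part of any of these cells in the chemokine values was not tested.

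Experiment 1 asked what MgSO4 does on its own, without injury. No member was called at 3 h (5 tested), 6 h (6 tested), 12 h (6 tested) or 24 h (6 tested) after MgSO4, where 0%, 0.0283%, 0% and 0.00555% of all probes were called by limma. With an unadjusted limma p under 0.05 the counts of members were 0, 4, 0 and 1, against 9.02%, 13.2%, 15.7% and 11.1% of probes. Ccl5 was not tested at any time, since its MgSO4 sample was well above background on 2 of 19 arrays, and Ccl4 was too dim to test at 3 h.

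At 3 h after MgSO4, Ccl2 gave log2 ratios of 0.43, -0.67, 0.21 and -0.14, and Ccl9 gave 0.68, -0.68, -0.20 and -0.65. Group means of the 5 tested members lay between -0.21 (Ccl9) and 0.11 (Ccl3). Replicates of both genes fell on either side of 0, and so did the mean over the members, which was 0.39, -0.63, 0.19 and -0.27 on the 4 arrays.

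At 6 h, Ccl3 had a lowest log2 ratio of -1.40, a median of -0.73 and a highest of 0.072 over the 7 arrays, with a mean of -0.63 ± 0.53 (SD, n = 7, limma adjusted p = 0.215), or 0.63 with the sign turned. Ccl3 was below 0 on 5 of 7 arrays. Its signal was well above background on 5 of 7 arrays in Cy3 and on 4 of 7 in Cy5. The array at -1.40 was above background in Cy3 only, and replicates 3 and 7 in neither channel. Its mean thus rests in part on signal near background. Ccl9 ranged from 0.040 to 0.90 with a median of 0.15 and a mean of 0.34, above 0 on 7 of 7 arrays, which is -0.34 with the sign turned. Ccl2 and Ccl4 each had a mean of 0.37 and were above 0 on 6 of 7 arrays, or -0.37 with the sign turned. With replicates 3 and 7 alone turned, every pair of arrays correlated above 0 (0.0409 to 0.671) and 8.46% of probes were called, but 0 of 6 members. These arrays were picked by their negative correlations, so the positive pairs do not test this reading. In that reading Ccl3 had a mean of -0.13 with 4 of 7 arrays above 0, Ccl9 of 0.29, Ccl2 of 0.27, Ccl4 of 0.12 and Ccl12 of 0.44 (limma adjusted p = 0.0328, under 1.5-fold). With the arrays as deposited, a single fit over all 8 groups, and the methods' t-test before adjustment, each called Ccl3 here.

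At 12 h after MgSO4 the means of tested members ran from -0.56 (Ccl9) to 0.00063 (Ccl12), with Ccl9 at -0.37, 0.29, -1.48 and -0.69 on the 4 arrays. At 24 h Ccl9 gave -0.90, -0.31, -0.46 and -0.29, a mean of -0.49 that was below 0 on 4 of 4 arrays but was not called. The means of the other tested members at 24 h lay between -0.59 (Ccl3) and -0.013 (Ccl2). An F test of differences among the 4 times called 0 of 6 members, as it called 0% of all probes, and 1 of 6 (Ccl9) had an unadjusted limma p under 0.05.

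Set against these arrays, the HI ratio had the higher mean for all 7 members at both times, and the difference was called at 3 h for 3 of 7, where 0.421% of probes were called. These were Ccl4, by 4.13 on the log2 scale (95% interval 3.26 to 5.00), Ccl3, by 2.19 (1.53 to 2.85), and Ccl2, by 2.18 (1.42 to 2.94). Ccl4 was well above background on 2 of 4 MgSO4 arrays in each channel at 3 h. It passed the filter on dim probes only through HI, so its difference is set against MgSO4 arrays near background. The other 4 differed by 0.50 (Ccl12) to 1.49 (Ccl7) at 3 h. At 12 h the difference was called for 6 of 7, where 1.79% of probes were called, with values of 2.46 (Ccl9) to 4.35 (Ccl4), and Ccl5 differed by 1.31 (95% interval 0.23 to 2.38, limma adjusted p = 0.178). The HI arrays lay wholly above the MgSO4 arrays for 4 of 7 members at 3 h (Ccl2, Ccl3, Ccl4 and Ccl7), against 8.52% of probes, and for 7 of 7 at 12 h, against 5.76%. Ccl5 was not well above background in either channel on any MgSO4 array at 12 h, so its place in that count is set against background. Leaving out replicate 1 of HI at 3 h left 1 member called at 3 h, and so did slide as a random block. Without replicate 2 of HI at 12 h, 3 were called at 12 h. No slide or scan day held both HI arrays and arrays of MgSO4 alone. Treatment therefore cannot be told apart from slide and scan day in these comparisons.

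Experiment 2 asked whether MgSO4 before HI changes the response to HI. On the ratio of Cy5 to Cy3 no member was called at 3 h, where 7.62% of 19255 probes were, nor at 12 h, where 0% were. By unadjusted limma p under 0.05 the counts were 1 (Ccl12) and 0 of 7, against 30.2% and 26.6% of probes. The median log2 ratio of the members was -0.23 at 3 h and 0.15 at 12 h.

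At 3 h Ccl12 gave -0.10, -0.73 and -0.54, a mean of -0.46 ± 0.32 (SD, n = 3, limma adjusted p = 0.10), below 0 on all 3 arrays, and 0.46 as Cy3 over Cy5. Ccl4 gave 0.43, -0.29 and -1.17, a mean of -0.34, and Ccl2 gave 0.20, 0.73 and -0.45, a mean of 0.16. Replicates of Ccl4 and Ccl2 thus fell on both sides of 0. The other 4 members had means between -0.26 (Ccl3) and 0.029 (Ccl7). Without replicate 1, Ccl4 and Ccl12 were called lower in Cy5 than in Cy3.

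At 12 h the arrays of Experiment 2 disagreed with one another. Ccl2 gave -0.072, 0.33 and 1.96, a mean of 0.74 ± 1.07 (SD, n = 3, limma adjusted p = 0.290, 95% interval -0.26 to 1.74), and Ccl7 gave -0.19, 1.000 and 1.88, a mean of 0.89 ± 1.04 (SD, n = 3, limma adjusted p = 0.212, 95% interval -0.075 to 1.86). As Cy3 over Cy5 these means are -0.74 and -0.89. On replicate 1 none of the 7 members was above 0 and on replicate 3 all 7 were, with means over the members of -0.49, 0.30 and 1.01 on the 3 arrays. For all 7 members replicate 3 had the lowest Cy3 level of the 3 arrays (Ccl2 -1.53, against -0.12 and 0.84 on replicates 1 and 2). Means of the other 5 members lay between -0.092 (Ccl5) and 0.30 (Ccl12).

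**Figure D4:**
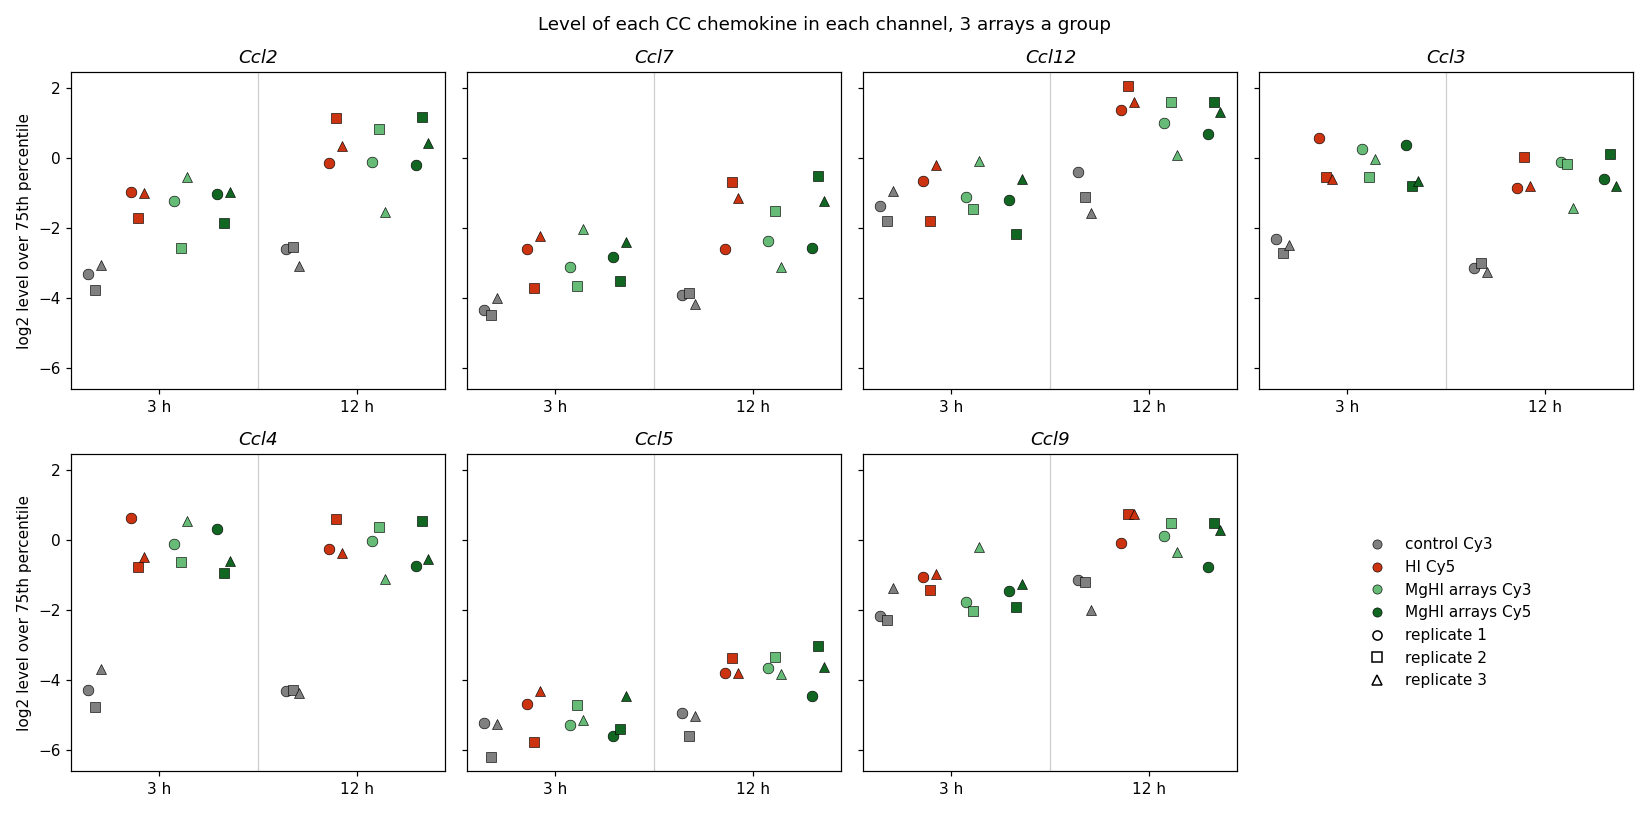
Each panel plots 1 gene, with the log2 level over the 75th percentile of the array in each channel on the vertical axis and 3 h and 12 h on the horizontal axis; the points are arrays of Experiments 3 and 2. For Ccl4 both channels of Experiment 2 lie with the HI samples, and the controls lie far below.

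Levels of each channel (log2 of the processed signal over the array's 75th percentile of that channel) were compared between experiments, probe by probe. Cy5 of Experiment 2 did not differ from Cy5 of the HI arrays for any member by the adjusted limma test, with 0 of 7 called and 0 with an unadjusted p under 0.05 at either time, where 6.18% and 0% of probes were called. At 3 h the differences ran from -0.45 (Ccl12, 95% interval -1.69 to 0.80) to -0.050 (Ccl2, -0.77 to 0.67), and at 12 h from -0.47 (Ccl12, -1.16 to 0.21) to 0.11 (Ccl3, -0.68 to 0.90). These intervals are wide enough to hold changes of 1.5-fold in either direction for Ccl2 and Ccl3. They come from a fit that does not pair same-numbered arrays, which deviated together here. A fit with the replicate number as a block also called 0 of 7 at either time.

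The Cy5 level of Ccl2 at 3 h was -0.97, -1.72 and -1.01 on the HI arrays and -1.02, -1.85 and -0.97 on the same-numbered arrays of Experiment 2. At 12 h it was -0.14, 1.13 and 0.35 on the HI arrays and -0.19, 1.18 and 0.43 on those of Experiment 2. The mean absolute Cy5 difference over the 7 members was 0.38, 0.28 and 0.17 between same-numbered arrays at 3 h and 0.41, 0.20 and 0.18 at 12 h, against 0.41 to 1.31 between arrays of different number. Arrays of different number on the same slide differed by 0.62 and 1.11 at 3 h and 0.62 and 0.67 at 12 h, more than the same-numbered arrays. Over all probes, the SD of the Cy5 difference was lowest for the same-numbered HI array except for replicate 1 at 12 h. There it was 0.66, against 0.59 and 0.60 for HI replicates 2 and 3. Within slides the Cy5 difference of Ccl2 was -0.093 and 0.037 at 3 h and -0.058 and 0.065 at 12 h. Ccl12 (-0.46 and -0.41, then -0.70 and -0.36), Ccl9 (-0.44 and -0.31, then -0.69 and -0.35) and Ccl4 (-0.23 and -0.12, then -0.47 and -0.11) were lower in Experiment 2 on every slide. They were also lower in every pair of same-numbered arrays. The share of all probes with such a pattern was not counted.

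Cy3 of Experiment 2 was compared with Cy3 of the controls at the same time, which are in part the controls of the HI ratios above. Ccl4 was the only member called, at 3 h (1 of 6 tested, where 0.375% of probes were called) and at 12 h (1 of 7, where 0.0317% were). Its Cy3 level at 3 h was -0.11, -0.63 and 0.55 on the arrays of Experiment 2 and -4.28, -4.77 and -3.69 in the controls of the HI arrays, and at 12 h -0.025, 0.37 and -1.11 against -4.30, -4.28 and -4.35. The groups did not overlap, as for 8.77% of probes at 3 h and 8.40% at 12 h that lay wholly above these controls, and over all controls of that time the difference was 4.46 (95% interval 3.67 to 5.25, limma adjusted p = 4.56e-04) at 3 h and 3.93 (3.09 to 4.77, limma adjusted p = 0.00870) at 12 h. Within the slides that held both experiments the Cy3 difference of Ccl4 was 4.16 and 4.24 at 3 h and 4.27 and 3.95 at 12 h, so it was as large inside each slide. Against the controls of the HI arrays alone, 2 members (Ccl3 and Ccl4) were called at 3 h and 0 at 12 h, and against those of the MgSO4 arrays alone 5 at each time. The MgSO4 controls were also the setting that called the most probes, 2117 at 3 h and 8155 at 12 h. In mice given MgSO4 alone, for comparison, the mean log2 ratio of Ccl4 over control was -0.10 at 3 h and -0.050 at 12 h. At 3 h Ccl4 was well above background on 2 of 4 of those arrays in each channel.

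Differences of the other members in Cy3 did not pass the adjusted test, although some did with slide as a random block. Ccl3 differed by 3.23 at 3 h (95% interval 1.74 to 4.72) and 3.35 at 12 h (2.07 to 4.63), Ccl2 by 2.42 (1.44 to 3.40) and 2.17 (1.14 to 3.19), and Ccl12 by 0.98 (0.14 to 1.82) and 1.62 (0.78 to 2.47). Ccl7 differed by 1.57 (0.86 to 2.28) and 0.76 (-0.46 to 1.98). Ccl5, tested at 12 h only, differed by 1.92, against controls that were well above background on 1 of 7 arrays. Ccl9 differed by 0.086 and 0.28 over all controls, with intervals that included 0. Against the controls on the same slides its difference was 0.34 and 1.2 at 3 h and 1.25 and 1.66 at 12 h, and that of Ccl7 was 1.02 and 1.97, then 1.53 and 1.71.

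Across all 31 arrays the members moved together, with Pearson correlations of 0.424 to 0.927 between pairs of members (21 pairs, median 0.775). Over the 19 arrays of MgSO4 alone the same pairs ran from -0.267 to 0.776 (median 0.301). The points share slides and dyes, and the first set mixes injured and uninjured groups, so both are descriptions. The 5 genes outside the list whose log2 ratio correlated best with the mean of the members, out of 14819, were Cd14 (r = 0.936), the interferon-induced chemokine Cxcl10 (0.918), Tlr2 (0.904), the neutrophil attractant Cxcl1 (0.890) and the macrophage scavenger receptor Msr1 (0.868). Their mean log2 ratios at 3 h and 12 h after HI were 1.14 and 2.21 for Cd14, 4.39 and 5.67 for Cxcl10, 0.41 and 1.23 for Tlr2, and 2.64 and 2.48 for Cxcl1, with control signals of Cxcl10 above background on 1 of 3 arrays at each time and of Cxcl1 on 1 and 2. Msr1 was above background in neither channel at 3 h and only in HI at 12 h, at least 2.19-fold.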

How the data were processed

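The authors pooled RNA from 6 hemispheres per sample, labelled it with Cy3 or Cy5, and extracted the scans with Agilent Feature Extraction 10.5.1.1. The deposited processed intensities are background-subtracted and dye-normalized (linear and LOWESS) within each array, and median spot and background intensities are deposited without correction. In the series table the authors give log10 values of Cy5 over Cy3, identical to the ratios inside each of the 30 array files with such a column.

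The log2 ratio of the processed intensities was computed per probe, after leaving out spots marked as outliers (0.351% to 1.02% per array) and averaging repeat spots. Of 39429 probes, 27427 (69.6%) had a single symbol by RefSeq accession, and 26345 remained without Rik names. A gene is its brightest probe. A probe was tested where the channel of either sample was well above background on at least 66.7% of a group's arrays. Each group's ratios were tested against 0, and differences between groups, with limma 3.58.1 (R 4.3.3) and Benjamini-Hochberg adjustment. Channel levels were log2 of the processed signal over the array's 75th percentile. A call needed an adjusted p under 0.05 and 1.5-fold. Promoters were scanned in Python 3.11.15. The tests were tested on simulated data.

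The members and lists were chosen with earlier results of these data known. All 7 members are named in every comparison, every tested receptor except 1 that is not reported here, at most the 5 most changed called genes of each other list, and the 5 genes most like the members. The labels do not say that same-numbered arrays share animals. Same-numbered samples deviated together (every correlation above 0.1) only for Cy5 of Experiment 2 and HI, with r of 0.233 to 0.517 at 3 h and 0.267 to 0.441 at 12 h, which share slides. Alternatives covered spot marks, the filter, background, centring, scaling, slide and replicate blocks, a single fit over 8 groups, the methods' t-test, the controls used, direction (with replicates 3 and 7 at 6 h turned, an alternative added after seeing the data), and leaving out each array. The number of arrays limits the precision. Pools of one group are treated as replicates, and p-values measure the spread between these pools.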

Additional observations from a re-analysis of the deposited data

Results flagged for a closer look

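One member had an array far from the others of its group. Ccl5 gave a log2 ratio of 1.73 on replicate 4 at 24 h after MgSO4, against 0.70 to 0.77 on the other 3 arrays. Its spot was not well above background in either channel on any of these 4 arrays. Of 28 sets of arrays examined this was the 1 that stood out, and chance gives about 1 in 20.

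The ratio to control differed between HI and MgSO4 alone, tested as a limma contrast between the 2 sets of arrays. No slide or scan day held arrays of both sets, so treatment cannot be told apart from these. At 3 h the differences that passed were 4.13 for Ccl4, 2.19 for Ccl3 and 2.18 for Ccl2 on the log2 scale. Ccl4 passed the filter on dim probes at 3 h only through HI. At 12 h they were 4.35 for Ccl4, 3.38 for Ccl2, 2.95 for Ccl7, 2.71 for Ccl3, 2.69 for Ccl12 and 2.46 for Ccl9.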

How the results depend on the processing

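Of the alternatives computed, none turned the direction of a called value, and 240 of the 276 counts of called members stayed within 1.5 times their reported value, each being a count of calls and not of the same genes. At 3 h after HI (6 called) the count was 1 with no filter on dim probes and 0 by the methods' t-test after Benjamini-Hochberg adjustment, and 3 to 5 leaving out an array, the 3 without replicate 1. At 12 h after HI (1 called) it was 0 with no filter, 3 with a filter on both channels, 5 with normexp, 6 with no background subtraction, 7 in a single fit over 8 groups, 5 by the methods' t-test unadjusted and 0 adjusted, 7 by limma unadjusted, and 4 to 7 when leaving out an array. For 12 h against 3 h it was 1 (Ccl12) with no background subtraction. At 6 h after MgSO4 it was 1 (Ccl3) in a single fit over 8 groups and by the methods' t-test unadjusted. On the ratio of Experiment 2 at 3 h, leaving out an array gave 0 to 2. For HI against MgSO4 at 3 h (3 called) it was 1 with slide as a random block, and 1 to 3 when leaving out an array, the 1 without HI replicate 1, and at 12 h (6 called) 3 to 6, the 3 without HI replicate 2. For Cy3 of Experiment 2 against controls (1 called at each time) it was 4 at 3 h and 5 at 12 h with slide as a random block, 2 and 0 with the controls of the HI arrays alone, also with slide as a fixed block, 5 and 5 with those of the MgSO4 arrays alone, and 1 to 2 when leaving out an array, the 2 at 3 h without replicate 3 of MgSO4 or replicate 2 of Experiment 2 and at 12 h without replicate 1 of MgSO4, replicate 3 of HI or replicate 3 of Experiment 2. The cause of these shifts was not tested. The replicate number as a block (replicate block) left 1 called for HI against MgSO4 at 3 h and 3 at 12 h, where the numbers did not pair the arrays (r from -0.477 to 0.206 and from -0.490 to 0.205), and changed no other count of members. In Cy5 of Experiment 2 against HI, where they did, the block gave 0 and 0 members, and 1516 probes in place of 1178 at 3 h.

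Counts over all probes moved more. At 3 h after HI 717 probes became 33 with no filter, 268 with normexp, 316 with no background subtraction, 415 in a single fit and 293 to 726 when leaving out an array. At 12 h after HI 2 became 11 with a filter on both channels, 375, 547 and 1107 under the same last 3 treatments, and 18 to 3331 when leaving out an array. On the ratio of Experiment 2 at 3 h 1468 became 749 with no filter, 604 with normexp, 786 with no background subtraction and 1127 to 2212 when leaving out an array, and at 12 h 0 became 325, 415 and 893 under normexp, no background subtraction and a single fit. Over all settings the probes called ran from 0 to 112, 1493 (replicates 3 and 7 turned), 214 and 74 at 3, 6, 12 and 24 h after MgSO4, from 0 to 79 for 12 h against 3 h after HI, from 21 to 135 and 20 to 532 for HI against MgSO4 (34 at 12 h with the replicate block), from 0 to 26 for Cy5 of Experiment 2 against HI at 12 h and 626 to 1516 at 3 h, and from 12 to 2117 and 0 to 8155 for its Cy3 against controls, highest with the controls of the MgSO4 arrays. The methods' t-test called 0 probes after adjustment in both HI groups and both groups of Experiment 2. The mean of all probes was not run, since each member has 1 probe, and slide as a random block could not be fitted for single groups of 3 arrays or where each slide held 1 array of the group (12 h and 24 h after MgSO4). Signal over background limits Ccl5 most, as its control sample was well above background on 4 of 25 arrays, and each fold rests on 3 to 7 arrays of pooled RNA.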
